A study of Mus musculus with 56 samples.

Results

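The cauda epididymis and the vas deferens of 3-month-old mice were compared across all genes. The libraries were the 4 of the cauda and the 4 of the vas deferens at that age, 8 of 56 in the read count table, and they were chosen by their labels and not by any measured value. Of 53379 genes in the table, 25576 had a total of at least 10 counts in the 8 libraries and were tested. The series held 7 regions of the reproductive tract of male C57BL/6 mice, each with 4 libraries at 3 months of age and 4 at 21 months. No treatment and no altered allele is named for any of these mice. According to the study's methods, the tissue of both body sides of a mouse was freed of fat and surplus connective tissue in buffered saline and cut into regions under a microscope. At each age the 7 regions came from the same 4 mice, so the cauda and the vas deferens libraries shared their animals, but the labels do not tie a replicate number to a mouse, and the p-values below measure the spread between the libraries.

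Sperm are stored in the cauda, a wide tubule lined by principal cells that secrete proteins, clear cells that acidify the fluid through proton pumps, and basal cells, with a sheath of smooth muscle around it. At emission they pass into the vas deferens, a tube with a narrow lumen and a thick muscle wall that contracts when sympathetic nerves release noradrenaline and ATP. Mature sperm make no new RNA, and the transcripts of spermatid genes that they hold were made in the testis.

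The bases before the start of 2 genes are shown because the results below turn on their groups. Akr1b7, an aldo-keto reductase known as a major protein of the mouse vas deferens, differed 982-fold between the regions. Myl9, the regulatory light chain of smooth muscle myosin, was the 1 smooth muscle gene of 20 with a promoter in the table whose window held a strict CArG box, a form of the element bound by serum response factor in which only A or T stands between CC and GG. Both are from RefSeq on build GRCm38.p6, 250 bases read on the gene's strand. The Akr1b7 window is chr6:34412112-34412361 on the plus strand, and its capitals mark TGTTCT, a half-site of steroid hormone response elements, which starts 100 bases before the gene. The Myl9 window is chr2:156775214-156775463 on the plus strand, and its capitals mark the CArG box, which starts 161 bases before the gene.
Akr1b7: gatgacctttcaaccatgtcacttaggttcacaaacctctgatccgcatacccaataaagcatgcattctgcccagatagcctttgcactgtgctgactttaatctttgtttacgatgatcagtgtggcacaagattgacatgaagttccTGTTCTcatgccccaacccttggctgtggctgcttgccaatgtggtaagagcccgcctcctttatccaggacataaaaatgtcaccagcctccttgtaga
Myl9: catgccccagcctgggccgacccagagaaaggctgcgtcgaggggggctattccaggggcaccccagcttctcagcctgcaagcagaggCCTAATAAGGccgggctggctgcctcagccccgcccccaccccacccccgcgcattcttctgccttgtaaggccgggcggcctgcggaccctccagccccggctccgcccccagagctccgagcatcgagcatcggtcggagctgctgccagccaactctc
TGTTCT, searched on both strands as TGTTCT and AGAACA, was in the 250 bases of 18.2% of the 27025 genes with a promoter in the table. It was in 9 of 23 genes (39.1%) of the epididymal secretory list, in 3 of 20 (15.0%) of the smooth muscle list, and in 2 of 15 (13.3%) of the list of aldo-keto, alcohol and retinoid enzymes. A strict CArG box was in the 300 bases around the start of 1.81% of all genes, of 1 of the 20 smooth muscle genes, of 3 of 28 sperm genes (10.7%) and of 1 of 23 secretory genes (4.35%). Boxes with another base at 1 of these places were not searched for, although serum response factor is known to bind such boxes, those of Acta2 among them, so that the counts do not say which genes it binds.

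The 8 libraries held 13317926 to 18908950 counts, the cauda 16913756 or more and the vas deferens 16115275 or less. The first principal component carried 79.1% of the variance and separated the regions, and the second, with 12.2%, set cauda replicate 3 apart from the other 7 libraries. In cauda replicate 3 the macrophage genes summed to 4283 CPM (read counts scaled to a common library size after TMM normalization), against 550 to 594 CPM in the other 3 cauda libraries. The extracellular matrix genes summed to 18950 CPM there and to 6630 to 6757 CPM in the other 3, while the sperm and secretory genes were lower. Cauda replicates 1 and 2 carried transcripts of fast skeletal muscle, such as Myh1, a fast myosin, at 37.4 and 30.0 CPM against 1.75 and 2.02 CPM in replicates 3 and 4 and 0 in all vas deferens libraries. Gm42418, a locus that overlaps ribosomal RNA sequence, took 13.2 to 17.8% of the cauda counts and 2.22 to 6.53% of the vas deferens counts, and its part in the differences below was not tested except where values without it are given.

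**Figure D1:**
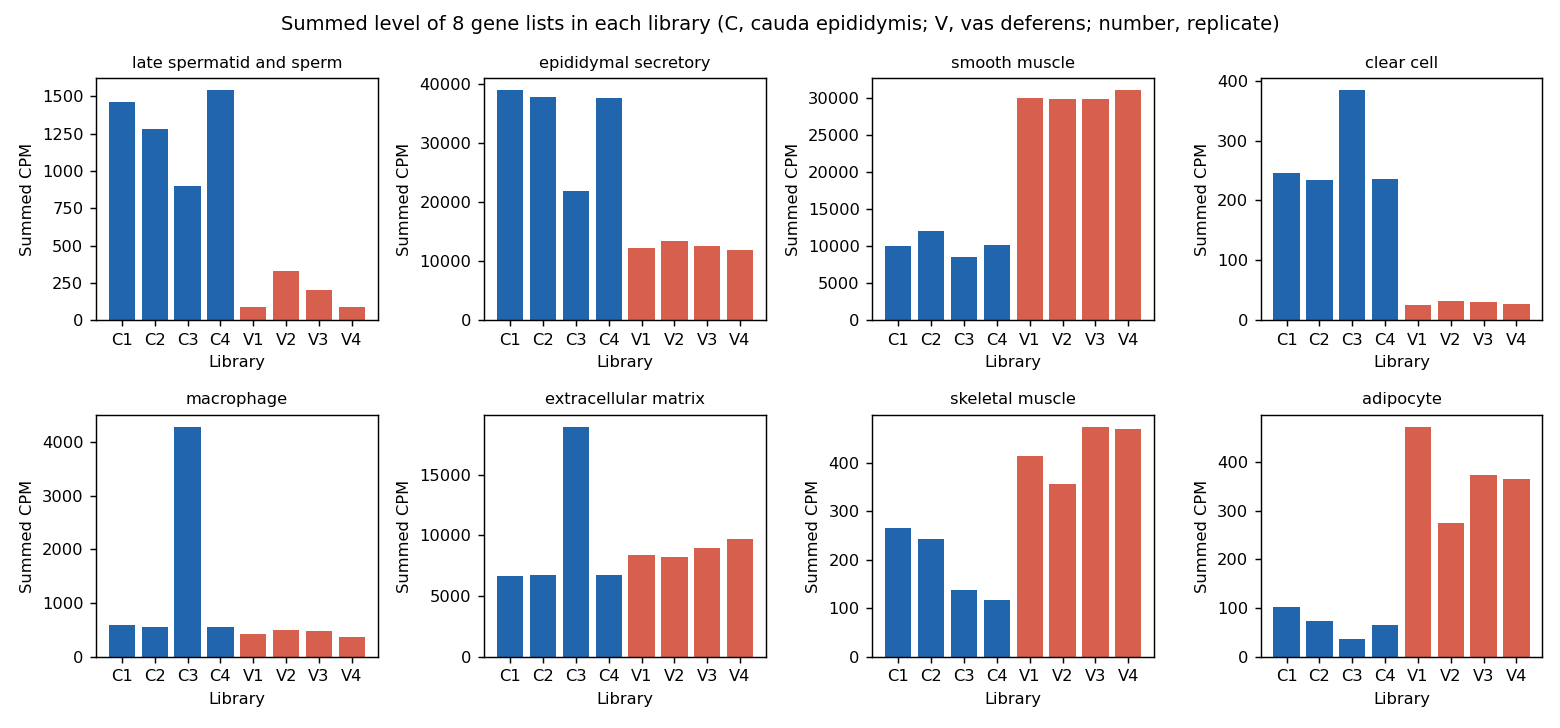
Summed level (CPM, vertical axis from 0) of 8 gene lists in each of the 4 cauda epididymis libraries (C1 to C4, blue) and the 4 vas deferens libraries (V1 to V4, red) of 3-month-old mice, 1 bar per library. The sperm list stood at 901 CPM or more in the cauda and at 327 CPM or less in the vas deferens, and cauda replicate 3 stood apart for macrophage and extracellular matrix genes.

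Between the regions, 9312 genes (36.4% of those tested) were called, that is, they passed an adjusted p under 0.05 in edgeR's quasi-likelihood test with a difference of at least 1.5-fold. Of these, 4335 (16.9% of the genes tested) were higher in the vas deferens and 4977 (19.5%) in the cauda. Scaled by library size alone the counts were 5862 and 4212, and without Gm42418 they were 3716 and 5466. For 11807 genes (46.2%) the 4 libraries of one region lay entirely above the 4 of the other, and 12372 (48.4%) passed the adjusted p at any fold. The median log2 fold change, vas deferens minus cauda, was 0.02 over all genes tested. At a threshold of 4-fold, 3515 genes (13.7%) were called, 1071 higher in the vas deferens and 2444 in the cauda.

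Transcripts of spermatids and sperm were lower in the vas deferens. Of 33 listed genes, 32 were tested, 30 were called and all 30 were higher in the cauda, beside 19.5% of all genes. The median log2 fold change of the list was -3.50, and -4.32 without vas deferens replicate 2. Prm2, a protamine that packs sperm DNA, stood at 170, 132, 111 and 175 CPM in the 4 cauda libraries and at 1.62, 33.1, 14.9 and 2.33 CPM in the vas deferens. The groups did not overlap, and the log2 fold change was -3.52 (SE 0.76, adjusted p = 0.0035). Odf1, an outer dense fibre protein of the sperm tail, stood at 245, 213, 146 and 247 CPM in the cauda and at 5.80, 51.6, 37.0 and 6.94 CPM in the vas deferens, with a log2 fold change of -3.08 (SE 0.63, adjusted p = 0.0026). Both genes were lowest in vas deferens replicates 1 and 4 and higher in replicates 2 and 3. Without replicate 2 the values were -4.53 for Prm2 and -3.68 for Odf1.

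The same order of the vas deferens libraries was seen in the sum of the list, which was 85.3, 327, 205 and 87.5 CPM there and 1461, 1279, 901 and 1544 CPM in the cauda. The transition proteins, which replace histones before the protamines do, were close to 0 in the vas deferens. Tnp1 had a mean of 4.73 ± 0.94 CPM (SD, n = 4) in the cauda and 0.0876 ± 0.14 CPM in the vas deferens, and Tnp2 had 11.4 ± 2.17 and 0.325 ± 0.429 CPM. Smcp, a capsule protein of sperm mitochondria, differed by -3.02 on the log2 scale (SE 0.70, adjusted p = 0.0051), or by -3.94 without vas deferens replicate 2, Akap4, the main protein of the fibrous sheath of the tail, by -3.72 (SE 0.60, adjusted p = 6e-04), and Gapdhs, the sperm form of a glycolytic enzyme, by -3.47 (SE 0.66, adjusted p = 0.0016). The smallest called difference of the list was that of Hook1, a microtubule-linking protein that epithelia also express, at -0.67. Spaca1 and Izumo1, membrane proteins of the sperm head, had means of 0.582 and 0.561 CPM in the cauda and 0.203 and 0.222 CPM in the vas deferens and were not called (adjusted p = 0.071 and 0.12).

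Across the 7 regions at 3 months, scaled in 1 fit of 28 libraries, the sum of the sperm list was 24950 CPM in the testis and 160 CPM in the vas deferens. The cauda had 1261 CPM, followed by corpus (763), caput (458), efferent ductules (363) and initial segment (272). The vas deferens had the lowest mean, and its libraries (78.0 to 298 CPM) overlapped those of the efferent ductules (279 to 596 CPM) and the initial segment (185 to 358 CPM). In tissue pieces of this kind, fewer cells of a type and less RNA per cell cannot be told apart. Of 12 tested genes of earlier germ cells, 7 were higher in the cauda (5 to 7 when 1 library was left out), beside 19.5% of all genes, among them Mael, Ddx4 and Piwil1, which act in germ-line small RNA pathways, at 5.66, 2.73 and 1.43 CPM against 0.369, 0.424 and 0.117 CPM. Zbtb16, a transcription factor of spermatogonia that other tissues also express, was higher in the vas deferens, at 136, 155, 170 and 141 CPM against 48.6, 49.1, 30.4 and 40.5 CPM (log2 fold change 1.84), and so was Dmc1, a meiotic recombinase, at 0.867 against 0.258 CPM.

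**Figure D2:**
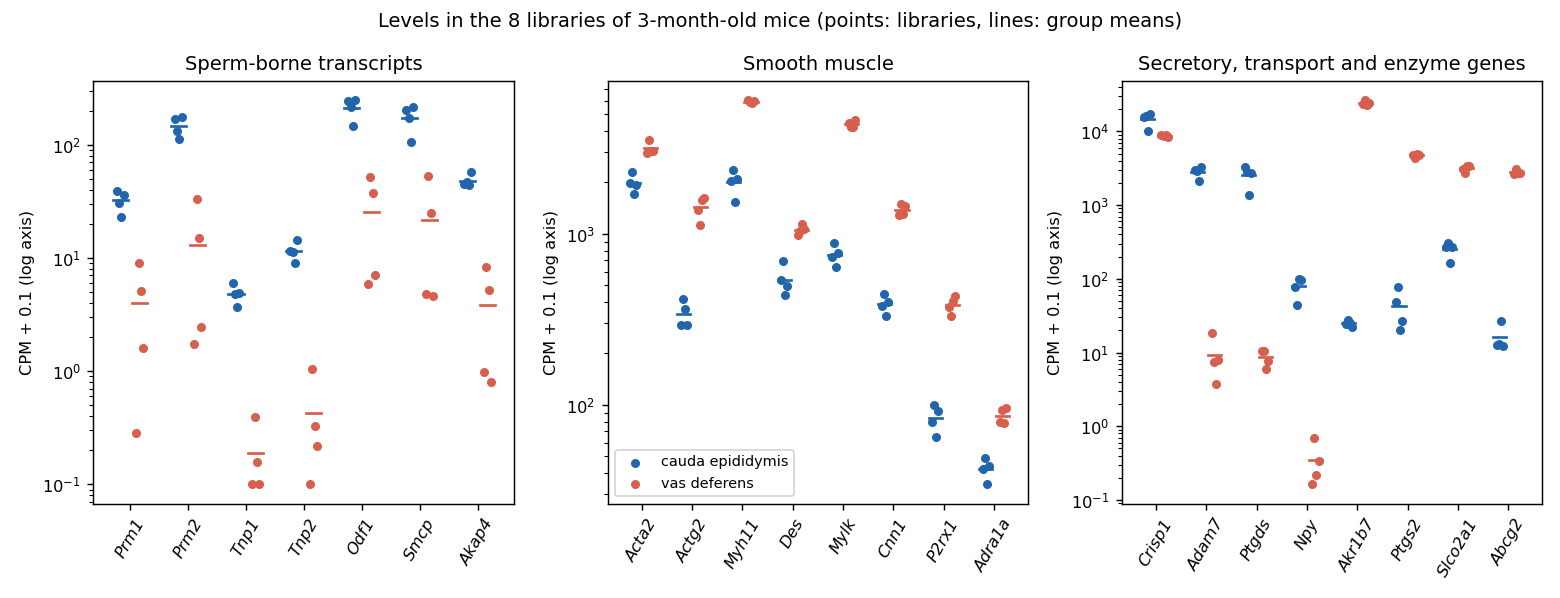
Level in each library (CPM plus 0.1, log axis) of sperm-borne transcripts, smooth muscle genes, and secretory, transport and enzyme genes in the cauda epididymis (blue) and the vas deferens (red) at 3 months. Points are libraries and short lines are means of 4. The sperm genes spread more widely in the vas deferens than in the cauda, and Akr1b7 had 22.1 to 27.9 CPM in the cauda and 23100 to 26460 CPM in the vas deferens.

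Genes of smooth muscle were higher in the vas deferens. Of 24 listed genes, all tested, 22 were called and all 22 were higher in the vas deferens, beside 16.9% of all genes, and the median log2 fold change was 1.79. The libraries of the regions did not overlap for any of the 24, beside 46.2% of all genes. Tagln and Myl9, an actin-binding protein and the myosin light chain whose promoter is shown above, differed by less than 1.5-fold (log2 fold change 0.57 and 0.51) and were called at that threshold when scaled by library size alone, which called 24 of 24 and moved the median of all genes from 0.02 to 0.19. The sum of the list was 10090, 12060, 8489 and 10120 CPM in the cauda and 30000, 29930, 29920 and 31150 CPM in the vas deferens.

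The members differed by unequal amounts. Mylk, the kinase that starts contraction by phosphorylating the myosin light chain, stood at 734, 888, 637 and 773 CPM in the cauda and at 4473, 4201, 4227 and 4654 CPM in the vas deferens, a 5.79-fold difference (log2 2.53, SE 0.12, adjusted p = 1.6e-07). Myh11, the smooth muscle myosin heavy chain, rose from 2033, 2370, 1527 and 2101 CPM to 6046, 5924, 5803 and 5951 CPM (log2 1.56, SE 0.14, adjusted p = 9.6e-06). Actg2, the gamma actin typical of visceral muscle, rose from 292, 416, 364 and 295 CPM to 1379, 1132, 1580 and 1628 CPM (log2 2.06, SE 0.15, adjusted p = 2.8e-06). Acta2, the alpha actin that vessels and myofibroblasts also make, differed less. It stood at 1987, 2294, 1701 and 1923 CPM in the cauda and at 2976, 3548, 3057 and 3055 CPM in the vas deferens, with a log2 fold change of 0.68 (SE 0.12, adjusted p = 8.5e-04). The value was 0.52 without cauda replicate 3 and 0.58 without Gm42418, both under 1.5-fold, as was the 0.58 of the fit with all 28 libraries of the age.

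Myocd, the coactivator that drives these genes through serum response factor, rose from 33.2 to 46.5 CPM in the cauda to 169 to 201 CPM in the vas deferens (log2 2.22, SE 0.11). Among the cytoskeletal and filament genes, Synpo2, Cald1 and Synm had log2 fold changes of 2.60, 2.33 and 2.31, and Des, the muscle intermediate filament, had 0.97. Hspb6, a small heat shock protein of muscle, went from 26.7 to 154 CPM. Flna and Tns1, which couple actin to the membrane and to focal adhesions and took large shares of the vas deferens counts, differed by 1.23 and 2.13. On the scale of the 28 libraries, the vas deferens had the highest sum of the smooth muscle list, 27560 CPM, followed by cauda (9910), initial segment (4363), caput (3019), efferent ductules (2141), corpus (1785) and testis (590).

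Receptors and channels of contraction did not all move in 1 direction. Of 19 tested, 7 were higher in the vas deferens and 8 in the cauda, beside 16.9% and 19.5% of all genes. When scaled by library size alone the counts were 8 and 4, and those over all genes went from 4335 and 4977 to 5862 and 4212. P2rx1, the ATP receptor of vas deferens muscle, stood at 79.3, 100.4, 64.8 and 92.0 CPM in the cauda and at 376, 333, 403 and 433 CPM in the vas deferens (log2 2.20, SE 0.14, adjusted p = 9.3e-07). The groups were well separated. Adra1a, the alpha 1A adrenoceptor that answers noradrenaline, rose from 42.2, 48.9, 34.2 and 43.9 CPM to 79.1, 92.9, 78.4 and 96.0 CPM (log2 1.03, SE 0.12, adjusted p = 5e-05), and Adra1d, a related receptor, rose by 1.89 on the log2 scale. Cacna1c, the pore of the L-type calcium channel, and Ryr2, a calcium release channel, rose by 1.75 and 2.18 on the log2 scale. Ednra, an endothelin receptor, and Itpr1, the inositol trisphosphate receptor, rose by 0.88 and 0.63. Itpr1 was not called in several other settings, among them the fit without cauda replicate 3, where it was 0.47.

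Lower in the vas deferens were Adra2a, the alpha 2A adrenoceptor, at 3.56 to 3.84 CPM against 22.3 to 28.6 CPM (log2 -2.78, SE 0.11), Avpr1a, the vasopressin receptor, at 4.10 against 11.1 CPM, Oxtr, the oxytocin receptor, at 1.44 against 2.78 CPM, and Ano1, a calcium-activated chloride channel of epithelium and pacemaker cells, at 274 against 542 CPM. Chrm2, Npy1r, Ednrb and Cacna1d had log2 fold changes between -0.71 and -0.61. Schwann cell genes, which mark nerve fibres, were higher in the vas deferens for 10 of 12, beside 16.9% of all genes. L1cam, a cell adhesion molecule that epithelium can also express, was the 1 member higher in the cauda. Of 7 tested autonomic neuron genes, 2 were higher in the vas deferens and 3 in the cauda, beside 16.9% and 19.5% of all genes. With 1 library left out, the first count was 1 to 3. On the scale of the 28 libraries, this list summed to 1075 CPM for the corpus, against 97.8 (cauda) and 9.25 (vas deferens). Whether these transcripts came from nerve fibres was not tested. Slc6a2, the noradrenaline transporter, was higher in the vas deferens at 7.83 against 0.599 CPM (log2 3.69, SE 0.35). Npy, a peptide of sympathetic nerves, went the other way, from 78.5, 43.7, 99.8 and 96.8 CPM in the cauda to 0.0624, 0.586, 0.115 and 0.233 CPM in the vas deferens (log2 -8.36, SE 0.45, adjusted p = 3.1e-07, and -9.10 without vas deferens replicate 2), as did Th and Nos1, the enzymes that make dopamine's precursor and nitric oxide, at 5.17 and 14.5 CPM in the cauda and 0.551 and 0.255 CPM in the vas deferens.

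**Figure D3:**
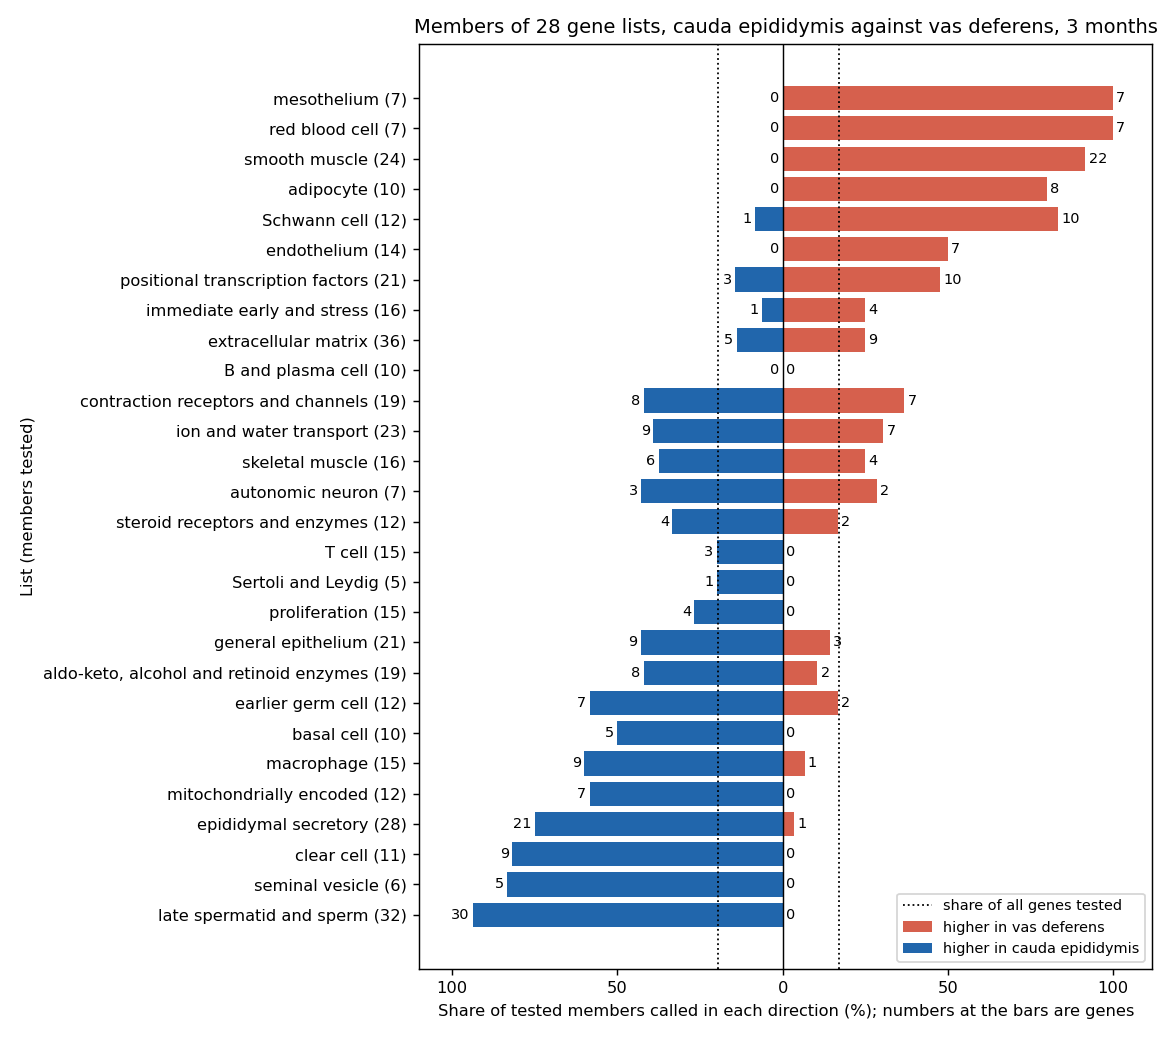
Share of the tested members of each of 28 gene lists (horizontal axis, %) that were called higher in the vas deferens (red, right) or in the cauda epididymis (blue, left), with the number of genes at each bar and the number tested in brackets. Dotted lines mark the share of all genes tested, 16.9% and 19.5%. Sperm genes lay almost wholly on the cauda side (30 of 32) and smooth muscle genes on the vas deferens side (22 of 24).

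The secreted products of the epididymis were mostly lower in the vas deferens. Of 32 listed genes, 28 were tested. The cauda was higher for 21 of these and the vas deferens for 1, beside 19.5% and 16.9% of all genes, with a median log2 fold change of -4.93, or -3.43 when the 5 genes with 0 counts in 1 region were set at their lower bounds. Ptgds, a prostaglandin D synthase that is secreted as a lipid carrier, stood at 3333, 2814, 1354 and 2707 CPM in the cauda and at 10.4, 10.5, 5.84 and 7.46 CPM in the vas deferens, 299-fold lower (log2 -8.23, SE 0.36, adjusted p = 1e-07). Adam7, a membrane protein that epididymal cells pass to sperm, fell from 2964, 2876, 2119 and 3313 CPM to 18.3, 7.33, 3.61 and 7.81 CPM (log2 -8.25, SE 0.50, adjusted p = 6.5e-07). Both genes were lowest in replicate 3 among the cauda libraries and did not overlap between regions.

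Other secretory genes kept a high level in the vas deferens. Crisp1, a cysteine-rich protein that coats sperm, stood at 15790, 16280, 10150 and 17130 CPM in the cauda and at 8996, 8602, 8945 and 8478 CPM in the vas deferens (log2 -0.76, SE 0.18, adjusted p = 0.0051). When scaled by library size alone, its difference was -0.58 and not called. Clu, the chaperone clusterin, had 3966, 3796, 1114 and 2431 CPM in the cauda and 1003, 2346, 1445 and 1229 CPM in the vas deferens, with overlapping groups (adjusted p = 0.074). Spink8, a protease inhibitor, had a log2 fold change of -1.05. Gpx3, a secreted glutathione peroxidase, fell from 8077 ± 2236 to 765 ± 79.4 CPM (SD, n = 4), a 10.6-fold difference. Defb42, a beta-defensin, was the 1 listed gene higher in the vas deferens, at 336, 345, 341 and 346 CPM against 18.8, 20.3, 31.6 and 19.5 CPM (log2 3.92, SE 0.17). Among all 32 tested beta-defensin genes, a group chosen after the values were seen, 24 were higher in the cauda against 2 in the vas deferens, beside 19.5% and 16.9% of all genes.

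Further genes that took large shares of the cauda counts were Cd52, a small lipid-anchored glycoprotein that sperm acquire in the epididymis, at 4734 ± 1140 against 680 ± 22.3 CPM, and Cuzd1, at 4076 ± 844 against 163 ± 45.4 CPM (SD, n = 4). Bpi, a bactericidal protein that binds bacterial lipopolysaccharide, had 15.3, 13.4, 6.03 and 14.9 CPM in the cauda and 0 counts in all vas deferens libraries, at least 266-fold higher in the cauda (3 counts over the group as the floor). Spink14, another protease inhibitor, had 85.4, 116, 23.2 and 98.0 CPM against 0.125, 0.147, 0 and 0 CPM. Cryba4, a crystallin, had 55.8 against 0.179 CPM. Spp1, the matrix protein osteopontin, had 874 CPM in cauda replicate 3 against 0.609 to 1.35 CPM in the other cauda libraries and 0 to 0.147 CPM in the vas deferens, and DESeq2 gave it no adjusted p.

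Akr1b7, whose promoter is shown above, was among the genes with the largest differences. It stood at 24.1, 27.9, 25.4 and 22.1 CPM in the cauda and at 23730, 26460, 23100 and 24390 CPM in the vas deferens, a 982-fold difference (log2 9.94, SE 0.20, adjusted p = 5.1e-09), and took 2.59% of the vas deferens counts. On the scale of the 28 libraries it had 22240 CPM in the vas deferens and no more than 84.8 CPM as the mean of any other region, which was the corpus. Akr1cl, a related reductase, had 51.5 to 66.0 CPM in the vas deferens and 0 to 0.122 CPM in the cauda. Eci3, an isomerase of fatty acid oxidation, had 54.9 against 0.0747 CPM. The other listed enzymes of these families did not share the direction. Of 19 tested, Akr1b7 and Akr1cl were higher in the vas deferens and 8 were higher in the cauda, beside 16.9% and 19.5% of all genes. Among the 8 were Akr1c12 and Akr1c13, at 35.1 and 96.1 CPM against 3.94 and 15.3 CPM, and the retinoid genes Aldh1a1, which makes retinoic acid, at 1397 against 399 CPM, and Crabp2, which carries it, at 32.8 against 1.24 CPM.

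Ptgs2, the inducible cyclooxygenase that makes prostaglandin precursors, stood at 47.7, 77.1, 20.02 and 26.3 CPM in the cauda and at 4712, 4394, 4989 and 4765 CPM in the vas deferens, 110-fold higher (log2 6.79, SE 0.44, adjusted p = 1.1e-06). Slco2a1, the prostaglandin transporter, rose from 272, 310, 163 and 271 CPM to 3080, 2697, 3422 and 3386 CPM (log2 3.63, SE 0.20, adjusted p = 3.6e-07). Ptgds, as given above, was higher in the cauda. Among the other genes with the largest folds, Kcnj16, an inwardly rectifying potassium channel, had 456 to 534 CPM in the vas deferens and 0.183 to 0.789 CPM in the cauda. Abcg2, an efflux pump, had 2632, 3085, 2727 and 2768 CPM in the vas deferens and 12.4, 12.9, 26.3 and 12.2 CPM in the cauda (log2 7.45, SE 0.30). Gm9573 had 346, 455, 355 and 390 CPM in the vas deferens and at most 0.55 CPM in the cauda.

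General epithelial genes showed that both tissues held epithelium, with a mixed difference. Cdh1, the adhesion molecule E-cadherin, had 302, 267, 199 and 284 CPM in the cauda and 263, 284, 284 and 259 CPM in the vas deferens (log2 0.05, SE 0.12, adjusted p = 0.74). Epcam, another epithelial adhesion molecule, was lower in the vas deferens at 72.9 against 155 CPM, as were Krt8 and Krt18, keratins of simple epithelium, at 113 and 116 CPM against 207 and 205 CPM. Of 21 tested genes, 9 were higher in the cauda and 3 (Krt19, Cldn7 and Esrp2) in the vas deferens, beside 19.5% and 16.9% of all genes. Without cauda replicate 3, which had the lowest level of the list, 10 were higher in the cauda against 0 in the vas deferens, and without cauda replicate 4 the vas deferens was higher for 1.

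Of 10 tested basal cell genes, 5 were higher in the cauda against 0 in the vas deferens, beside 19.5% and 16.9% of all genes. The keratins Krt14 and Krt15 fell from 30.8 and 33.7 CPM to 7.73 and 4.94 CPM, and Krt5 from 52.6 ± 5.69 to 30.6 ± 3.06 CPM (SD, n = 4). Trp63, the transcription factor that defines these cells, had 37.0, 37.1, 38.7 and 36.0 CPM in the cauda and 45.3, 57.4, 50.3 and 46.1 CPM in the vas deferens, a difference of 0.42 on the log2 scale that was under 1.5-fold. Clear cell genes were lower in the vas deferens for 9 of 11, against 19.5% of all genes, with a median of -1.57 that was -2.70 without cauda replicate 1 and -2.74 without cauda replicate 3. Foxi1, the transcription factor of these proton-secreting cells, stood at 50.2, 47.1, 46.6 and 49.0 CPM in the cauda and at 2.62, 5.57, 2.92 and 2.86 CPM in the vas deferens (log2 -3.80, SE 0.22, adjusted p = 4.5e-07). The proton pump subunits Atp6v1b1, Atp6v1g3 and Atp6v1c2 fell with it, by 4.15, 4.93 and 4.34 on the log2 scale, while Atp6v0d2, which osteoclasts and some macrophages also express, had 206 CPM in cauda replicate 3 and 35.3 to 39.4 CPM in the other cauda libraries, and DESeq2 gave it no adjusted p.

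Of 23 tested genes that move ions and water, 9 were higher in the cauda (19.5% of all genes) against 7 in the vas deferens (16.9%). Slc9a3, an apical sodium-proton exchanger, fell from 150, 156, 80.2 and 147 CPM to 1.62, 1.25, 0.745 and 1.40 CPM (log2 -6.73, SE 0.29, adjusted p = 9.3e-08). Slc26a3, a chloride-bicarbonate exchanger, fell from 84.7 to 3.79 CPM, Clcn5, an endosomal chloride-proton exchanger, from 693 to 46.7 CPM, and Scnn1a, a subunit of the epithelial sodium channel, from 88.1 to 9.84 CPM. Aqp2, a water channel, rose from 0.366, 0.687, 0.282 and 0.245 CPM to 26.8, 38.6, 17.3 and 23.9 CPM (log2 6.06, SE 0.35), Aqp1 from 42.7 to 121 CPM, and Slc12a2, a sodium-potassium-chloride cotransporter, from 21.6 to 74.0 CPM. Aqp9, a water and glycerol channel, and Cftr, the chloride channel mutated in cystic fibrosis, were not called, at 252 and 1.81 CPM in the cauda and 222 and 1.19 CPM in the vas deferens (adjusted p = 0.27 and 0.073). Of 12 steroid receptor and enzyme genes, 2 were higher in the vas deferens (1 without cauda replicate 1, 2 or 4 or any 1 vas deferens library) and 4 in the cauda, against 16.9% and 19.5% of all genes, so that the first share lay at the background. Among the 4 were the 5-alpha reductases Srd5a1 and Srd5a2, at 4.40 and 13.9 CPM against 2.25 and 7.56 CPM.

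Of 21 tested transcription factors that mark position along the duct, 10 were higher in the vas deferens, beside 16.9% of all genes, and 3 in the cauda, a share near the 19.5% of all genes. Hoxa13 had 0 counts in all 4 cauda libraries and 8.73, 6.45, 5.62 and 5.89 CPM in the vas deferens, at least 148-fold higher against the floor of 3 counts over the group. Hoxd13 had 15.3, 13.1, 11.9 and 13.7 CPM in the vas deferens and 0.0609 to 0.489 CPM in the cauda, with means of 13.5 and 0.272 CPM, and Hoxd12 had 4.00 against 0.0768 CPM. The genes next to them in the clusters differed less, with log2 fold changes of 2.03 for Hoxd11 and 1.52 for Hoxa11. Hoxd10, Hoxa10, Hoxa9 and Hoxd9 had values of -0.13, 0.21, -0.03 and -0.35 and were not called. Hoxb9 and Hoxc10 were higher in the cauda (log2 -0.73 and -1.51). Gata3 rose from 98.6, 93.5, 66.1 and 100 CPM to 440, 332, 437 and 479 CPM (log2 2.24, SE 0.15, adjusted p = 1.7e-06), and Osr1 from 5.01 to 47.6 CPM.

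Markers of other tissues also differed between the groups. All 7 tested genes of the mesothelium, which covers the organs, were higher in the vas deferens (summed 275 to 326 against 91.7 to 106 CPM), as were 8 of 10 adipocyte genes (275 to 473 against 36.7 to 102 CPM), 7 of 14 of endothelium (356 to 408 against 180 to 355 CPM) and all 7 of red blood cells (96.0 to 174 against 28.1 to 37.5 CPM). The endothelial count was 5 to 9 with 1 library left out. Adipoq, which defines fat cells, was uneven among the vas deferens libraries, at 23.6, 3.66, 12.7 and 9.56 CPM. Of 16 skeletal muscle genes, 6 were higher in the cauda against 4 in the vas deferens, namely Acta1, Ckm, Casq1 and Tnnc2, while the defining fast myosins Myh1, Myh2 and Myh4 had 0 counts there. When 1 library was left out, 4 to 11 skeletal genes were higher in the cauda (11 without cauda replicate 3) and 4 in the vas deferens. Of 6 tested genes of the seminal vesicle secretion, 5 were higher in the cauda, led by Svs1 at 149, 157, 73.1 and 165 CPM against 0.688 to 1.61 CPM, while Svs2 had 0.641 against 1.10 CPM. The shares of all genes were 16.9% higher in the vas deferens and 19.5% in the cauda. The part of these tissues in the differences given above was not tested.

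The counts of macrophage and matrix genes changed with the libraries used. Of 15 macrophage genes, 9 were higher in the cauda (19.5% of all genes) against 1 in the vas deferens, and without cauda replicate 3 the counts were 8 and 1, but the median log2 fold change went from -1.42 to -0.63. Without vas deferens replicate 1 or 4, 5 were higher in the cauda. Lyz2, a lysozyme of macrophages, had 144, 124, 2355 and 127 CPM in the cauda and 109, 122, 116 and 78.9 CPM in the vas deferens, so that the groups lay close together apart from cauda replicate 3. Its log2 fold change was -2.69 with it and -0.40, not called, without it, the call was also lost when any 1 vas deferens library was left out, and DESeq2 gave it no adjusted p. Of 36 matrix genes, 9 were higher in the vas deferens and 5 in the cauda, shares not far from the 16.9% and 19.5% of all genes, and without cauda replicate 3 the counts were 12 and 4, with medians of -0.12 and 0.35. Without cauda replicate 2 or 4, 5 matrix genes were higher in each region. Col1a1, the main fibrillar collagen, had 350, 345, 2577 and 383 CPM in the cauda and 452, 308, 548 and 688 CPM in the vas deferens and was not called. Col4a1, a basement membrane collagen, was called, at 171, 187, 360 and 170 CPM against 608, 453, 659 and 747 CPM. Col12a1 and Tnc, a fibril-associated collagen and tenascin C, were higher in the cauda in all libraries, at 442 and 52.1 CPM against 75.1 and 8.13 CPM. None of 10 genes of B and plasma cells was called by edgeR at 3 months (0 at an unadjusted p under 0.05 and 0 by DESeq2), and without cauda replicate 1 or 3 the vas deferens was higher for 1 and 2.

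Properties of the RNA differed with the region too. Malat1 and Neat1, nuclear long noncoding RNAs, rose from 8920 ± 1007 and 603 ± 216 CPM to 24590 ± 499 and 6177 ± 835 CPM (SD, n = 4), and Rn7sk, a small nuclear RNA, fell from 13340 ± 1745 to 3579 ± 814 CPM. Of 12 tested genes of the mitochondrial genome, 7 were higher in the cauda, beside 19.5% of all genes, among them mt-Co1, a cytochrome oxidase subunit, at 7632 against 3886 CPM. Outside that list, mt-Rnr2, the large mitochondrial ribosomal RNA, had 6708 against 1203 CPM. Exon lengths were compared among genes with a mean of at least 1 CPM over both regions. Their median log2 fold change was -0.29 for up to 500 bases of exon, -0.39 for 501 to 1000 bases and -0.18 for 1001 to 2000 bases. It was -0.0 for 2001 to 4000 bases, 0.12 for 4001 to 8000 bases and 0.23 for longer genes. Of 84 cytosolic ribosomal protein genes, a group chosen after the values were seen, 74 were higher in the cauda (19.5% of all genes) against 0 in the vas deferens (16.9%), with a median of -1.52. The part of exon length in the differences of the gene lists was not tested.

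The same regions were compared in 21-month-old mice, which share no library with the younger ones, and where cauda replicate 2 stood apart from the other 3 cauda libraries. Of 26149 genes tested, 8482 (32.4%) were called, 4168 (15.9%) higher in the vas deferens and 4314 (16.5%) in the cauda, and the libraries of the regions did not overlap for 9655 (36.9%). At 4-fold, 3225 (12.3%) were called. Of 9162 genes that were called at 3 months and tested at 21 months, 8522 (93.0%) had the same direction and 36 were called in the opposite one. Genes called in the same direction at both ages numbered 5607. This was 61.2% of those 9162 genes, and 68.8% of the 8144 genes called at 21 months and tested at 3 months. Sperm genes were again higher in the cauda for 30 of 32 and smooth muscle genes in the vas deferens for 23 of 24, with medians of -2.75 and 2.28. Akr1b7 had 46.3 and 16180 CPM, Ptgs2 84.8 and 4616 CPM, and Hoxa13 0 counts and 8.49 CPM in the older cauda and vas deferens.

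A test of whether the regional difference itself changed with age called 726 of 28423 genes (2.55%), of which 525 had a larger ratio of vas deferens to cauda at 21 months. The count fell to 162 when 1 library (vas deferens replicate 4 at 3 months) was left out and rose to 1216 without cauda replicate 2 at 21 months, and it is given with that range. Npy differed by -8.36 at 3 months and by -4.30 at 21 months (log2 difference 4.14, SE 0.55, adjusted p = 0.0024). Akr1b7 differed by 9.94 and 8.45 (log2 difference -1.41, SE 0.26, adjusted p = 0.013), Acta2 by 0.68 and 1.80 (log2 difference 1.21, SE 0.22, adjusted p = 0.013) and Ptgds by -8.23 and -6.08 (log2 difference 2.23, SE 0.48, adjusted p = 0.027). Of the 32 sperm genes, 0 were called in this test and their median difference was 0.90, beside 0.11 over all genes tested. Of the 24 smooth muscle genes, 7 were called, all with a larger ratio at 21 months, and their median difference was 0.74. Of 31 secretory genes, 5 were called with a larger ratio and 1 with a smaller one. Over all genes, 16.9% were called higher in the vas deferens and 19.5% in the cauda at 3 months, and 15.9% and 16.5% at 21 months. B and plasma cell genes were called higher in the vas deferens for 9 of 10 at 21 months and for 0 of 10 at 3 months, and the difference between the ages was itself called for 4 of 10. Red blood cell genes, higher in the vas deferens for all 7 at 3 months, were called for 0 of 7 at 21 months, and 0 of 7 were called in the test between ages. The skeletal muscle list went from 4 genes higher in the vas deferens and 6 in the cauda at 3 months (median -2.92) to 8 and 1 at 21 months (median 2.77), and 6 of 16 were called between the ages. Its sum was 266, 242, 138 and 116 CPM in the younger cauda libraries, which were uneven. The mean sum went from 191 to 73.4 CPM in the cauda and from 428 to 366 CPM in the vas deferens. Of the 6 seminal vesicle genes, the vas deferens was higher for 0 and the cauda for 5 at 3 months, against 2 and 3 at 21 months, with 4 called between the ages. Their sum was 2.06 to 3.52 CPM in the younger vas deferens libraries and 471.9, 1903, 784.5 and 22.9 CPM in the older ones, so that the older libraries were uneven.

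**Figure D4:**
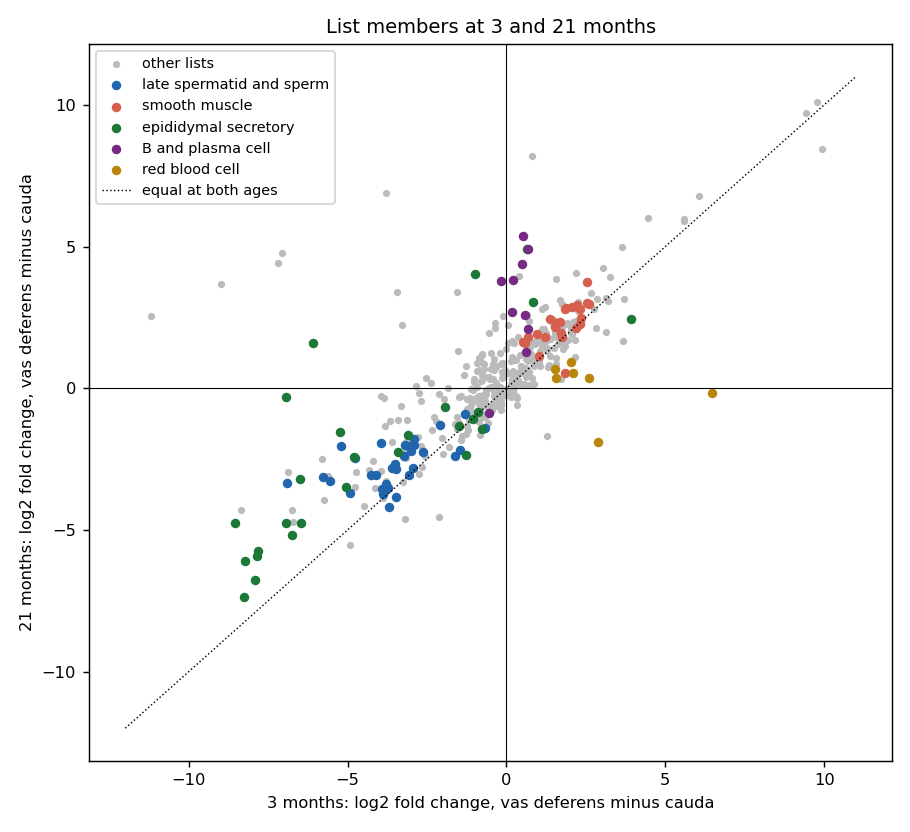
Log2 fold change (vas deferens minus cauda) of 432 list members at 3 months (horizontal axis) and 21 months (vertical axis), each point a gene, with sperm, smooth muscle, secretory, B and plasma cell and red blood cell genes in colour and the dotted line marking equal values. Of the 432 members, 349 had the same sign at both ages, and 9 of 10 B and plasma cell genes lay above the line.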

How the data were processed

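Strand-specific total RNA libraries of dissected tissue were read in pairs. According to the study's methods and the submitters' processing notes, the authors trimmed reads with cutadapt, aligned them to mm10 with HISAT2 and counted them per gene with HTSeq, and deposited the raw read counts used here. Tool versions, the annotation release, the counting mode and the strand setting are not given in the sources used here. Reads of overlapping or near-identical genes, such as the ribosomal protein pseudogenes, may therefore be split between them.

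Gene symbols came from GENCODE M21 and matched 53274 of 53379 identifiers. Of 458 list entries, 456 were matched. Groups came from the labels, with 4 libraries each. Genes whose counts in the 8 libraries added up to 10 or more were fitted with edgeR 4.0.16 in R 4.3.3 (TMM scaling, quasi-likelihood test, Benjamini-Hochberg adjustment over all genes tested) and called at an adjusted p under 0.05 and at least 1.5-fold. Levels are counts scaled to a common library size after TMM (CPM), and a log2 fold change is vas deferens minus cauda. Where 1 region had 0 counts, the fold is a lower bound against 3 counts over the group. Libraries of a group differed by more than sampling noise, so that each counted as 1 replicate.

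Named genes were, in each direction, the 10 called genes with the largest fold (mean of 10 CPM or more in the higher region, libraries not overlapping), the 10 with the largest share of counts, the 4 of each list with the highest mean, 18 defining genes and the 10 with the smallest adjusted p between ages. Other members of a list were named where their list was counted, and some genes under these rules are not reported here. The members and lists were chosen with earlier results of these data known, so the list counts are descriptions and no list was tested as a set. Alternatives were DESeq2 1.42.0, other scaling, count filters and thresholds, a replicate block, 1 fit of 28 libraries and leaving out each library. The fit without Gm42418 was chosen after seeing the data.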

Additional observations from a re-analysis of the deposited data

Results flagged for a closer look

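Of 56 sums of a gene list over the 4 libraries of a region at 3 months, 12 had 1 library far from the other 3. Distance was judged by that library's gap from the next one, over the range of the 4. This rule picks about 1 in 20 sums by chance if they are independent and normal. Sums taken over the same libraries are not independent, so that rate does not apply as it stands. Cauda replicate 3 accounted for 9 of the 12. It was high for the extracellular matrix list (18950 CPM), the macrophage list (4283 CPM), the clear cell list (384.6 CPM) and the endothelium list (355.0 CPM), and low for the epididymal secretory list (21790 CPM), the general epithelium list (1893 CPM), the ion and water transport list (1725 CPM), the positional transcription factors (766.3 CPM) and the seminal vesicle list (78.05 CPM). In the clear cell list, Atp6v0d2 carried 206 CPM of that library's sum. In the vas deferens, replicate 4 was high for the smooth muscle list (31150 CPM) and for the Sertoli and Leydig list (3.556 CPM), and replicate 2 for the autonomic neuron list (10.92 CPM). The 4 vas deferens libraries ranged from 29920 to 31150 CPM for the smooth muscle list, from 2.50 to 3.56 CPM for the Sertoli and Leydig list and from 9.67 to 10.92 CPM for the neuron list.

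The change between the regions differed between the ages, by edgeR's test of the interaction, for 3 of the 18 defining genes and, by the rule that chose them, for the 10 genes with the smallest adjusted p. The log2 difference of the 21-month and the 3-month fold change was 4.14 for Npy, 2.57 for Tcf7, a transcription factor of T cells, 2.23 for Ptgds, 2.13 for Dnah11, a dynein of motile cilia, 1.52 for Sulf2, an enzyme that trims heparan sulfate, 1.21 for Acta2 and -1.41 for Akr1b7. It was 1.85 for Rps10-ps2 and 1.73 for Rps6-ps4, ribosomal protein pseudogenes, 1.23 for Rpl32, a ribosomal protein, 1.24 for Ybx1, an RNA-binding protein, 1.16 for Dynll1, a dynein light chain, and 1.30 for Tomm5, a subunit of the mitochondrial import pore. The adjusted p of these 13 ran from 0.00222 (Rps10-ps2, Ybx1, Dynll1 and Tcf7) to 0.0266 (Ptgds).

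The same test called 15 other genes that the text names. The log2 difference was 1.11 for Tagln, 1.22 for Myl9, 1.31 for Hspb6, 1.64 for Oxtr, 1.42 for Tnnc2, 2.58 for Cyp17a1, 1.85 for Crabp2, 1.36 for Scnn1a, 2.09 for Slc9a3, 1.12 for Hoxd10, 1.61 for Rn7sk, 2.55 for Svs1, 7.46 for Svs2 and -1.40 for Defb42, with adjusted p from 0.0143 (Rn7sk) to 0.045 (Defb42). The fitted 13.74 of Myh1 is no measure of size, as that gene had 0 counts in the vas deferens at 3 months.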

How the results depend on the processing

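At a threshold of 4-fold, 3515 genes were called at 3 months (1071 higher in the vas deferens, 2444 in the cauda) and 3225 at 21 months (1466 and 1759), and in the lists 9 smooth muscle genes, 5 clear cell genes, 5 macrophage genes, and 46 and 96 genes of all lists higher in the vas deferens and the cauda. Scaling by library size alone gave 5862 higher and 4212 lower at 3 months (58.2% higher, against 46.6%, and 38.4 to 41.3% without Gm42418, by DESeq2, with its size factors and in the fit of 28 libraries) and 5702 and 3226 at 21 months. DESeq2 called 5 macrophage genes higher in the cauda among the 10 to which it gave an adjusted p, and the 5 without one held the other 4 of the 9 called by edgeR. Leaving out 1 library gave 8431 to 10037 called genes at 3 months and 7084 to 8296 at 21 months, 29 to 31 sperm, 21 to 23 smooth muscle, 21 to 23 secretory and 9 clear cell genes, and 5 to 11 macrophage genes, with 5 without vas deferens replicate 1 or 4. The interaction with age was the least stable, with 726 genes as reported, 2084 by DESeq2, 228 with a replicate block and 162 to 1216 without 1 library. It fell by over 1.5 times without cauda replicates 1, 2 or 4 or any vas deferens library at 3 months, and without cauda replicate 1 or vas deferens replicate 3 at 21 months, and it rose without cauda replicate 2 at 21 months. The cause was not tested. A shorter window, from 150 bases before the start to 50 after it, leaves out the box of Myl9 and held a strict CArG box in 0 smooth muscle genes. Libraries with the same replicate number did not deviate together (correlations of -0.0648 to 0.012 at 3 months), so the numbers were not taken as pairs. The replicate block gave 8587 called genes at 3 months and 7049 at 21 months. No gene named by the rules that was called changed direction in any setting run, while some that were not called had values on both sides of 0, such as Col1a1 (-1.15 to 0.39) and Cdh1 (-0.15 to 0.23).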

Other observations

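Of 81 tested potassium channel genes, a group chosen after the values were seen, 34 were higher in the vas deferens and 18 in the cauda, beside 16.9% and 19.5% of all genes tested. Besides Kcnj16, Kcnc1 rose from 0.880 to 103 CPM (log2 fold change 6.87, SE 0.27), Kcns3 had 1.26 and 71.3 CPM, and Kcnj2, an inward rectifier, had 9.73 and 92.2 CPM.

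Of 16 immediate early and stress genes, 4 were higher in the vas deferens and 1 in the cauda at 3 months, beside 16.9% and 19.5% of all genes, and 9 and 0 at 21 months. Dusp1, a phosphatase induced by stress, had 11.9 and 104 CPM at 3 months. Of 15 proliferation genes, 4 were higher in the cauda, not far from the share of all genes, with Mki67, a marker of dividing cells, at 23.8 against 11.5 CPM. Of 15 T cell genes, 3 were higher in the cauda at 3 months, a share near the 19.5% of all genes, and 2 were higher in the vas deferens without cauda replicate 3. At 21 months 10 were higher in the vas deferens and 1 in the cauda, beside 15.9% and 16.5% of all genes. Of 5 tested Sertoli and Leydig genes, Cyp17a1, a steroid enzyme, was higher in the cauda, at 5.37 against 0.418 CPM.

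On the scale of the 28 libraries, the clear cell list had 25.7 CPM for the vas deferens, near the 26.1 CPM of the testis, against 268 (cauda), 272 (caput) and 305 CPM (corpus). The secretory list had 11380 CPM for the vas deferens, against 33080 (cauda), 35820 (corpus), 59830 (caput) and 66710 CPM (initial segment).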
